A study of Mus musculus with 12 samples.

Results

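The DNA replication machinery was followed through the aggregation of embryonic liver cells as 41 listed genes that act between the loading of an origin and the packaging of the finished strand. Of these, 40 had a probe set annotated to them on the array table and all 40 passed the filter on low levels, out of 15781 genes tested and 18193 on the table. Chaf1a, the large subunit of the chromatin assembly factor, was not used here. Where a gene had several probe sets, it was read from the probe set with the highest mean level. The cells were 2 bipotential mouse embryonic liver (BMEL) lines, 9A1 and 14B3, isolated independently from embryonic liver at 14 days post coitum, from embryos of a CBA/J by C57Bl/6J cross. The sample labels name no altered gene and no added agent in any group. Each line was grown in basal culture, as aggregates for 1 day and as aggregates for 5 days, with 2 biological replicates of each, so that every culture is represented by 4 arrays and every line by 6. A line is one immortal cell population, so replicates show how cultures of that line vary and not how embryos vary. Values are log2 levels from Affymetrix mouse 430 2.0 arrays, and differences are in log2 units with the standard error of the limma fit. A gene is called where its p, adjusted by Benjamini-Hochberg over the 15781 genes, is under 0.05.

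Replication starts by licensing. The origin recognition complex, Cdc6 and Cdt1 load the ring-shaped Mcm2 to Mcm7 helicase onto origins, and geminin, encoded by Gmnn, holds Cdt1 back once S phase has begun. The Dbf4-Cdc7 kinase, Cdc45 and the GINS complex then turn the loaded ring into a moving helicase, polymerase alpha and primase lay the primers, polymerases delta and epsilon extend them on the clamp Pcna, and Fen1 and Lig1 join the pieces. Many of these genes are transcribed as cells pass from G1 into S phase, under E2F factors that the RB family restrains, and hepatocytes in the adult liver rarely replicate.

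The promoters of the members are shown first, because many of these genes are described in the literature as under E2F control. Whether that control has a part in the changes on the arrays was not tested. RefSeq promoters of build GRCm38.p6, reaching 250 bases before and 50 bases after the annotated start, were at hand for 33 of the 41 listed genes. An E2F-type motif, searched on both strands as TTCCCGC or TTCGCGC or TTGCCGC or TTGGCGC, was present in 20 of these 33 (60.6%), against 9.69% of all 27025 promoters in the table and 14.9% of the 12610 whose gene was tested on the arrays. The box CCAAT was present in 60.6% of the members, against 37.9% of all promoters and 38.1% of those of tested genes. The cell cycle homology element, searched as TTTGAA or TTCGAA, was present in 24.2% of the members, against 19.4% of all promoters and 14.2% of those of tested genes. The median GC content was 60.0% for the members, 52.7% for all promoters and 59.7% for those of tested genes. A match is a description of the letters and not a binding site. For the member with the largest fall at day 5 in each step for which the table has an entry, the promoter follows 5′ to 3′ in the direction of the gene, with the E2F-type matches in capitals, overlapping matches run together. The promoter of Pcna was chosen after its values were seen, because it is the member whose level returned. It has no such match in this window, and its capitals mark the CCAAT box read on the other strand. The other members without a match, Dbf4, Tk1, Mcm2 and Lig1 among them, were all called lower at day 5. Orc1, which was not called on the probe set used, has 1 match.
Cdc6 (chr11:98907901-98908200, plus strand): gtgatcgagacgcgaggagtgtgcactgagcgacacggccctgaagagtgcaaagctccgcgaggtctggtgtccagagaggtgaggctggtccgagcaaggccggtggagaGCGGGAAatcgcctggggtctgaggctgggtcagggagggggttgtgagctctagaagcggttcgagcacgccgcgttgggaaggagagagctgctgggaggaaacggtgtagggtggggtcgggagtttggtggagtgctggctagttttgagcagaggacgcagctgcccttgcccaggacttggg
Mcm5 (chr8:75109259-75109558, plus strand): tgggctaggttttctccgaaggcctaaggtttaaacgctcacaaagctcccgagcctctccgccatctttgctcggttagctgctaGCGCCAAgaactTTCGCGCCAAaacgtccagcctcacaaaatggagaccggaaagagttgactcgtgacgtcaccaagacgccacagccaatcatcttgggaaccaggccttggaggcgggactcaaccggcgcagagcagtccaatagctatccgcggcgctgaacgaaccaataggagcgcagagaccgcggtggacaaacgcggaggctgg
Pole2 (chr12:69228141-69228440, minus strand): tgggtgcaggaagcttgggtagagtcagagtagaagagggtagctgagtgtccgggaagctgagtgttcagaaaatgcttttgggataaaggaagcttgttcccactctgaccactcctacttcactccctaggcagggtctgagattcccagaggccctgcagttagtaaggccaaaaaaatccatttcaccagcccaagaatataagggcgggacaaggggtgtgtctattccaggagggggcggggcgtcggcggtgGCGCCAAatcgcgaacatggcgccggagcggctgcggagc
Rfc4 (chr16:23127681-23127980, minus strand): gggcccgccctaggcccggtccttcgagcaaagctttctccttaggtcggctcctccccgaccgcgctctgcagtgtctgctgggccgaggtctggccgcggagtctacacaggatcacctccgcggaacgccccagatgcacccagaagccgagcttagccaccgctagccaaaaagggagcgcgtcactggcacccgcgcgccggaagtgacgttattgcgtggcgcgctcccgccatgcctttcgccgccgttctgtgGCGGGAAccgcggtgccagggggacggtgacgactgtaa
Rrm2 (chr12:24708004-24708303, plus strand): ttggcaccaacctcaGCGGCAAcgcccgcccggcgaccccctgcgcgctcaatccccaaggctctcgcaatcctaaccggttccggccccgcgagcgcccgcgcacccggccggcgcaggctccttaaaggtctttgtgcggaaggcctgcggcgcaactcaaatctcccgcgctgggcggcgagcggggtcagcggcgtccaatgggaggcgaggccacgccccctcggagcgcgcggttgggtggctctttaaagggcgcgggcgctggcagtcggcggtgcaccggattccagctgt
Pcna (chr2:132253131-132253430, minus strand): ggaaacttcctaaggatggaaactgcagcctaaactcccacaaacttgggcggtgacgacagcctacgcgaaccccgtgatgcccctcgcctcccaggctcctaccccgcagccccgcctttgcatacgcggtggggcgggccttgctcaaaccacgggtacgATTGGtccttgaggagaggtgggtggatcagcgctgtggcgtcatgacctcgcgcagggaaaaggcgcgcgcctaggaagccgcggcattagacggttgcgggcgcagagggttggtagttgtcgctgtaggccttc
Both a promoter and array values were at hand for 32 members. At day 5 against basal culture the 19 with an E2F-type match had a median difference of -3.003. The 13 without had -2.29, with overlapping ranges. At day 1 against basal culture the medians were -2.15 with a match and -1.87 without. Between day 1 and day 5 they were -0.46 with a match and -0.51 without. Whether a match bears on these changes was not tested.

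Some arrays stood apart. Array medians lay between 6.09 and 6.24 and the SD over probe sets between 2.13 and 2.33, with day 1 9A1 replicate 2 highest in median and narrowest in SD. Basal 9A1 replicate 1 carried hepatocyte markers at a mean of 10.82, where the other 3 basal arrays had 6.11 to 6.53, and it was the lowest basal array for 39 of the 40 members. It was also the highest basal array for progenitor markers (12.22 against 10.77 to 11.30), for the blood marker Cd68 (8.13 against 6.95 to 7.30) and for endothelial markers (6.10 against 5.17 to 5.62). On hepatocyte markers the array labelled basal 9A1 replicate 1 thus lay nearer to the day 5 arrays than to the other basal arrays, against its label, and whether it is labelled correctly was not tested. On the replication genes it was still above every day 1 array for 39 members and above every day 5 array for 38. Day 1 9A1 replicate 2 and day 5 9A1 replicate 2 were each the lowest array of their culture for 30 members. The hepatocyte marker mean of the 7 listed genes on the table lay between 6.11 and 10.82 in basal culture, 8.20 and 8.74 at day 1 and 11.07 and 12.27 at day 5, so every day 5 array lay above every basal array, opposite to the replication genes, and its part in the results was not tested. The 8 epithelial progenitor markers on the table averaged 10.77 to 12.36 over the 12 arrays, and Dlk1 alone had culture means of 6.10 to 6.16. At day 5 against basal culture, 3 of the 8 were called higher and 1 lower, with differences from -1.08 to 4.58. Of all tested genes 16.9% were called higher and 18.5% lower. Among markers of other cells, Ptprc, Hba-a1, Tek and Col3a1 were below the floor of 5. The macrophage marker Cd68, the 1 blood marker tested, lay between 6.95 and 8.13 in basal culture, 6.83 and 8.08 at day 1 and 5.85 and 6.39 at day 5. Like the members it was lower at day 5, with a difference of -1.19 ± 0.29 from basal culture (adjusted p = 0.011) and -1.23 ± 0.29 from day 1 (adjusted p = 0.0165), and its part in the results was not tested. The mean of the 3 tested endothelial markers lay between 5.17 and 6.10 over the 12 arrays with no call, and the stellate and fibroblast mean lay between 6.19 and 6.62 on every array.

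Nearly all of the machinery was lower in aggregates. The exceptions were Orc1 at day 1, and Orc1 and Pcna at day 5, with Orc1 read on the probe set that stood for it. In the fit over both lines, 39 of the 40 members were called lower at day 1 than in basal culture and none higher, where 8.8% of all tested genes were called lower, and 38 of 40 were called lower at day 5, where 18.5% of all genes were. The median member difference was -2.10 at day 1 and -2.67 at day 5, against 0.03 and 0.01 over all tested genes. For 39 members all 4 day 1 arrays lay below all 4 basal arrays, which held for 8.9% of all genes, and for 38 members all 4 day 5 arrays did, against 20.3% of all genes. The mean over the 40 members lay between 9.68 and 10.57 on the basal arrays, between 7.87 and 8.40 at day 1 and between 7.19 and 7.91 at day 5, so that the basal range was separate and the ranges of the 2 aggregate stages overlapped. In bulk RNA fewer replicating cells and less RNA per cell cannot be told apart. Without basal 9A1 replicate 1 the counts were again 39 and 38. The day 1 falls of Gins3, Cdc7, Fen1, Rfc3 and Rrm2 each lost their call when one of certain 14B3 arrays was left out, which were basal replicate 1 for Gins3, Cdc7, Fen1 and Rrm2, basal replicate 2 for Gins3, day 1 replicate 1 for Gins3 and Fen1, and day 1 replicate 2 for Gins3, Cdc7, Rfc3 and Rrm2. Both comparisons use the same basal arrays, so their counts are not independent of each other.

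**Figure D1:**
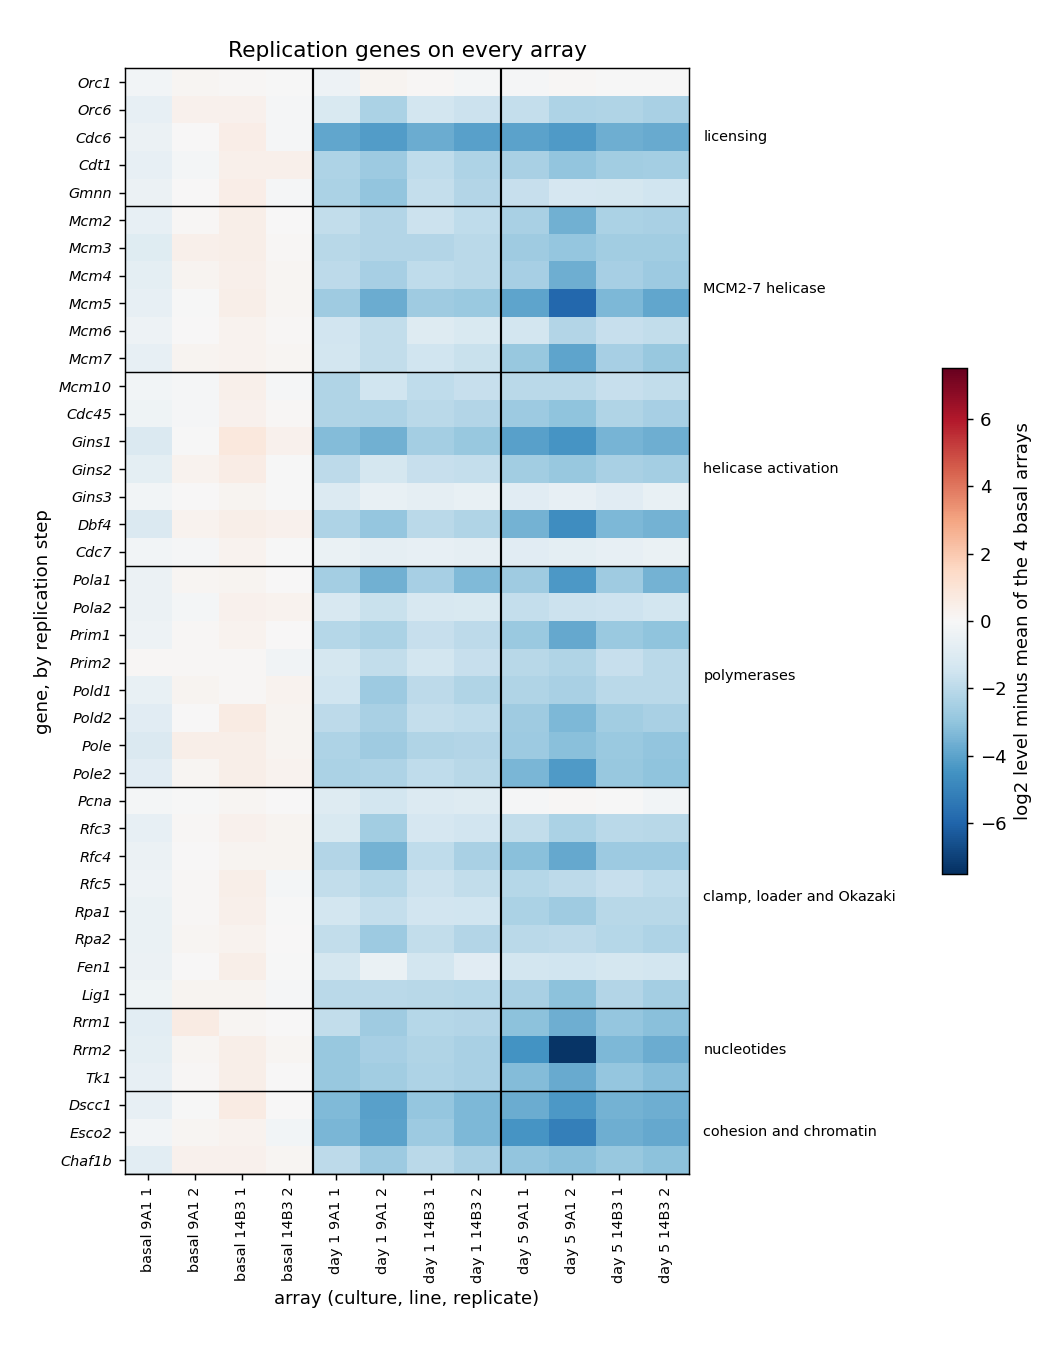
Log2 level of each of the 40 replication genes (rows, grouped by step) on each of the 12 arrays (columns), minus the mean of the gene's 4 basal arrays, with blue for lower. Nearly all rows turn blue at day 1 and stay blue at day 5. Orc1, on the probe set used, stays near 0 throughout, and Pcna returns to its basal level at day 5.

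Licensing genes held the steepest member at day 1, Cdc6, and the flattest on the probe sets used, Orc1. Of the 5, Orc6, Cdc6, Cdt1 and Gmnn were called lower at day 1 and at day 5, and Orc1 in neither. Cdc6, the loader of the helicase, stood at 8.97 and 9.42 in basal culture, 5.50 and 5.22 at day 1 and 5.37 and 5.11 at day 5 in 9A1 cells, and at 9.88 and 9.27 in basal culture, 5.67 and 5.29 at day 1 and 5.72 and 5.58 at day 5 in 14B3 cells. All 8 aggregate arrays lay at least 3 log2 units below every basal array and the stages of aggregation overlapped. The aggregate levels were close to the floor of 5, which limits the size of the fall and what can be read between the aggregate stages. Cdc6 fell by 3.96 ± 0.19 at day 1 (adjusted p = 7.93e-05) and by 3.94 ± 0.19 at day 5 (adjusted p = 2.84e-05), 15.3-fold lower than in basal culture. The fall at day 1 had the largest size of any of the 40 members in that comparison, and between day 1 and day 5 the difference was 0.03 ± 0.19, with a 95% interval of -0.40 to 0.45. Cdt1, which brings the helicase to the origin with Cdc6, fell by 2.32 ± 0.18 at day 1 and by 2.65 ± 0.18 at day 5. Orc6, the smallest subunit of the origin recognition complex, fell by 1.62 ± 0.30 and 2.21 ± 0.30.

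Gmnn, the inhibitor of Cdt1, stood at 10.22 and 10.69 in basal culture, 8.28 and 7.73 at day 1 and 8.96 and 9.39 at day 5 in 9A1 cells, and at 11.15 and 10.59 in basal culture, 8.89 and 8.45 at day 1 and 9.33 and 9.17 at day 5 in 14B3 cells. The 4 day 1 arrays were the lowest, the 4 day 5 arrays lay between them and the basal arrays, and no array of one culture crossed into another. Gmnn fell by 2.33 ± 0.21 at day 1 against basal culture (adjusted p = 0.000424) and remained 1.45 ± 0.21 lower at day 5 (adjusted p = 0.000868). Between day 1 and day 5 it rose by 0.88 ± 0.21 (adjusted p = 0.0178). That rise was not called without day 1 14B3 replicate 2, day 5 9A1 replicate 2 or either day 5 14B3 array, where its adjusted p was between 0.0541 and 0.0776.

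Orc1, the largest subunit of the origin recognition complex, stood at 6.11 and 6.44 in basal culture, 5.93 and 6.54 at day 1 and 6.20 and 6.40 at day 5 in 9A1 cells, and at 6.37 and 6.30 in basal culture, 6.37 and 6.17 at day 1 and 6.25 and 6.26 at day 5 in 14B3 cells on the probe set that represents it. The 3 cultures overlapped fully, and the difference was -0.05 ± 0.16 at day 1 and -0.02 ± 0.16 at day 5, neither of them called. Its other probe set, 1422663_at, was at or above the floor on 5 arrays and stood at 5.72 and 6.12 in basal culture, 4.66 and 5.28 at day 1 and 4.63 and 4.60 at day 5 in 9A1 cells, and at 6.71 and 6.28 in basal culture, 4.59 and 4.82 at day 1 and 4.69 and 4.65 at day 5 in 14B3 cells. On this probe set every aggregate array lay below every basal array, with a difference of -1.37 ± 0.17 at day 1 and -1.57 ± 0.17 at day 5. Orc1 was thus flat or lower depending on the probe set read, and the levels on both were close to the floor.

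The 6 subunits of the replicative helicase fell together. All of Mcm2 to Mcm7 were called lower at day 1 and at day 5, with a median difference of -2.00 at day 1 and -2.78 at day 5, although they form a ring with 1 copy of each. Mcm5 stood at 10.73 and 11.33 in basal culture, 8.68 and 7.61 at day 1 and 7.35 and 5.44 at day 5 in 9A1 cells, and at 11.76 and 11.50 in basal culture, 8.64 and 8.54 at day 1 and 7.96 and 7.44 at day 5 in 14B3 cells. In each line the 3 cultures did not overlap, and day 5 9A1 replicate 2 was the lowest array by a wide margin. Mcm5 fell by 2.96 ± 0.40 at day 1 and dropped by 4.28 ± 0.40 at day 5 (adjusted p = 0.000113), 19.5-fold lower than in basal culture. Mcm6 stood at 11.40 and 11.83 in basal culture, 10.31 and 9.90 at day 1 and 10.40 and 9.59 at day 5 in 9A1 cells, and at 12.01 and 11.85 in basal culture, 10.78 and 10.63 at day 1 and 10.04 and 9.91 at day 5 in 14B3 cells. Its basal arrays lay above all aggregate arrays, and the aggregate stages overlapped. Mcm6 fell by 1.37 ± 0.19 at day 1 and 1.78 ± 0.19 at day 5 (adjusted p = 0.00022). On the probe sets that stood for them, the other 4 subunits fell by 2.70 to 3.04 at day 5. Mcm7 was at -3.04, Mcm4 at -2.84, Mcm2 at -2.72 and Mcm3 at -2.70. Other probe sets gave -3.47 for Mcm2, -3.48 for Mcm4 and -2.86 to -3.29 for Mcm7. For Mcm5 they gave -4.53 on 1415945_at and -1.15 on 1459658_at, which was close to the floor, and for Mcm6 -2.08 on 1438852_x_at. For Mcm3 they gave -3.96, -3.58 and -3.61, and -0.11 on 1420029_at, which was close to the floor. The order and spacing of these subunits thus depended on the probe set read.

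Genes that activate the loaded helicase were spread over a wider range of falls. All 7 were called lower at both times, from Gins1 at -3.91 to Cdc7 at -0.68 at day 5. Gins1, a subunit of the 4-part GINS complex, stood at 9.27 and 10.30 in basal culture, 7.07 and 6.74 at day 1 and 6.28 and 5.92 at day 5 in 9A1 cells, and at 11.12 and 10.68 in basal culture, 7.77 and 7.49 at day 1 and 6.83 and 6.71 at day 5 in 14B3 cells. The basal arrays lay above all aggregate arrays, the aggregate stages overlapped, and within each culture the 9A1 mean lay below the 14B3 mean. Gins1 fell by 3.08 ± 0.24 at day 1 and 3.91 ± 0.24 at day 5 (adjusted p = 2.97e-05). Gins2, its partner in the complex, fell by 2.63 ± 0.24 at day 5 and Gins3 by 0.74 ± 0.16, so the listed subunits did not fall by equal amounts on these probe sets. Cdc45, which binds GINS and the Mcm ring, fell by 2.61 ± 0.14 at day 5, and Mcm10, a scaffold of the new fork, by 1.90 ± 0.19.

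Dbf4, the regulatory subunit of the Cdc7 kinase, fell by 2.38 ± 0.33 at day 1 and 3.77 ± 0.33 at day 5. Cdc7, the catalytic subunit, stood at 7.08 and 7.22 in basal culture, 6.80 and 6.63 at day 1 and 6.45 and 6.55 at day 5 in 9A1 cells, and at 7.56 and 7.26 in basal culture, 6.64 and 6.58 at day 1 and 6.65 and 6.77 at day 5 in 14B3 cells on its representative probe set. Basal arrays lay above all aggregate arrays by a small step, and Cdc7 fell by 0.62 ± 0.12 at day 1 (adjusted p = 0.0127) and 0.68 ± 0.12 at day 5 (adjusted p = 0.00282). The other Cdc7 probe set, 1426002_a_at, stood at 7.24 and 8.09 in basal culture, 5.64 and 4.90 at day 1 and 4.66 and 4.66 at day 5 in 9A1 cells, and at 8.59 and 7.86 in basal culture, 5.45 and 5.36 at day 1 and 5.32 and 5.41 at day 5 in 14B3 cells. On it every aggregate array lay below every basal array, with a difference of -2.61 ± 0.24 at day 1 and -2.93 ± 0.24 at day 5. The small change given for Cdc7 therefore holds for one of its probe sets.

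**Figure D2:**
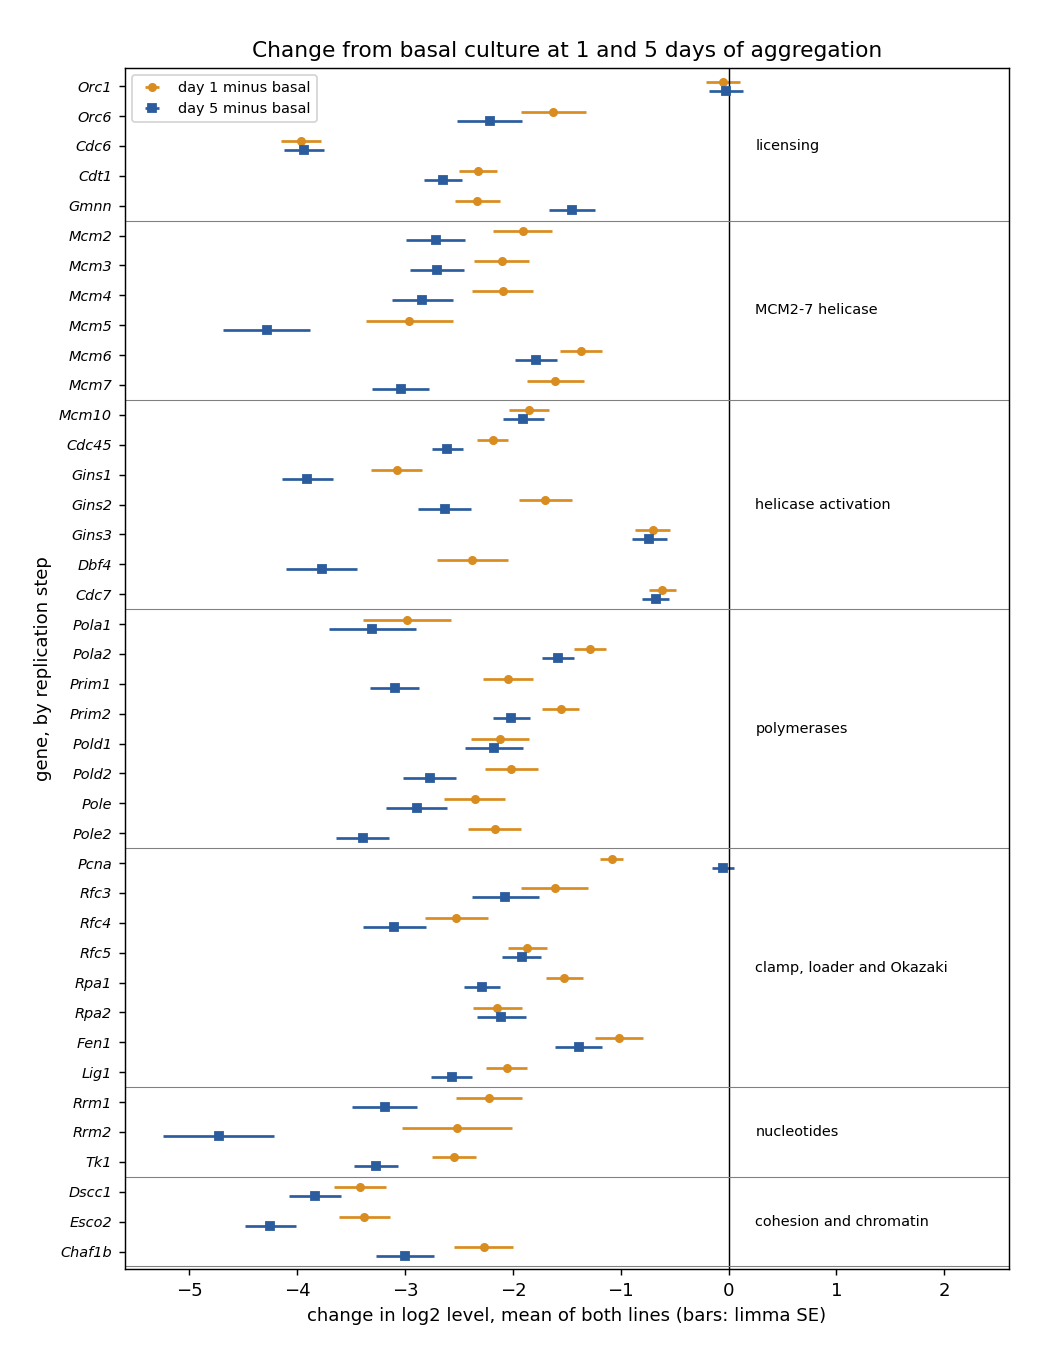
Difference in log2 level from basal culture for each of the 40 replication genes, at day 1 (circles) and at day 5 (squares), averaged over both lines with the limma standard error as bars. The points run from -0.02 for Orc1 to -4.73 for Rrm2 at day 5, and for Gmnn and Pcna the day 5 square lies clearly to the right of the day 1 circle.

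The replicative polymerases and primase, 8 genes, were all called lower at both times, with a median difference of -2.08 at day 1 and -2.83 at day 5. Pole2, the second subunit of the leading-strand polymerase epsilon, stood at 9.09 and 10.07 in basal culture, 7.54 and 7.59 at day 1 and 6.51 and 5.67 at day 5 in 9A1 cells, and at 10.36 and 10.20 in basal culture, 8.05 and 7.87 at day 1 and 7.07 and 6.91 at day 5 in 14B3 cells. Its 3 cultures did not overlap. Pole2 fell by 2.17 ± 0.25 at day 1 and 3.39 ± 0.25 at day 5 (adjusted p = 3.76e-05), while the catalytic subunit Pole fell by 2.89 ± 0.29 at day 5. Pola2, the second subunit of the primer-making polymerase alpha, stood at 9.53 and 9.81 in basal culture, 8.78 and 8.31 at day 1 and 8.20 and 8.33 at day 5 in 9A1 cells, and at 10.30 and 10.22 in basal culture, 8.78 and 8.83 at day 1 and 8.40 and 8.60 at day 5 in 14B3 cells. Basal arrays were above all aggregate arrays, and Pola2 fell by 1.29 ± 0.15 at day 1 and 1.58 ± 0.15 at day 5 (adjusted p = 0.000108). The catalytic subunit Pola1 fell by 3.30 ± 0.41 at day 5. At day 5 the primase subunits Prim1 and Prim2 fell by 3.10 ± 0.23 and 2.01 ± 0.17, and the delta polymerase subunits Pold1 and Pold2 by 2.17 ± 0.27 and 2.77 ± 0.25. Prim2 stood at 9.12 and 9.13 in basal culture, 7.74 and 7.21 at day 1 and 6.97 and 6.83 at day 5 in 9A1 cells, and at 9.16 and 8.82 in basal culture, 7.71 and 7.35 at day 1 and 7.34 and 7.05 at day 5 in 14B3 cells. Its basal arrays lay above all others.

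At the clamp, its loader, the single-strand binding proteins and the enzymes that finish lagging strand pieces, 8 of 8 genes were called lower at day 1 and 7 of 8 at day 5. Rfc4, a subunit of the clamp loader, stood at 9.92 and 10.36 in basal culture, 8.13 and 6.83 at day 1 and 7.24 and 6.51 at day 5 in 9A1 cells, and at 10.54 and 10.57 in basal culture, 8.42 and 7.91 at day 1 and 7.61 and 7.63 at day 5 in 14B3 cells. The 4 basal arrays were separate from the rest, and the aggregate stages overlapped. Rfc4 fell by 2.53 ± 0.29 at day 1 and 3.10 ± 0.29 at day 5 (adjusted p = 0.000113). At day 5 the loader subunits Rfc3 and Rfc5 fell by 2.07 ± 0.31 and 1.92 ± 0.18, the single-strand binding subunits Rpa1 and Rpa2 by 2.29 ± 0.17 and 2.11 ± 0.23, the ligase Lig1 by 2.57 ± 0.19 and the flap nuclease Fen1 by 1.39 ± 0.22. For Fen1 the other probe set, 1421731_a_at, gave -2.97 ± 0.25 at day 5.

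Pcna, the sliding clamp, was the exception. It stood at 13.12 and 13.25 in basal culture, 12.29 and 11.88 at day 1 and 13.20 and 13.38 at day 5 in 9A1 cells, and at 13.44 and 13.28 in basal culture, 12.26 and 12.33 at day 1 and 13.24 and 13.08 at day 5 in 14B3 cells. All 4 day 1 arrays lay below all 8 others, and the day 5 arrays overlapped the basal arrays. Pcna fell by 1.08 ± 0.11 at day 1 against basal culture (adjusted p = 0.000519) and rose by 1.03 ± 0.11 between day 1 and day 5 (adjusted p = 0.000453). At day 5 the difference from basal culture was -0.05 ± 0.11 and was not called, with a 95% interval of -0.29 to 0.19. Its sign at day 5 turned with quantile normalisation and in 9A1 alone. Pcna also serves DNA repair and chromatin assembly. Pcna and Gmnn each have 1 probe set on the table, so neither rise could be read a second time.

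**Figure D3:**
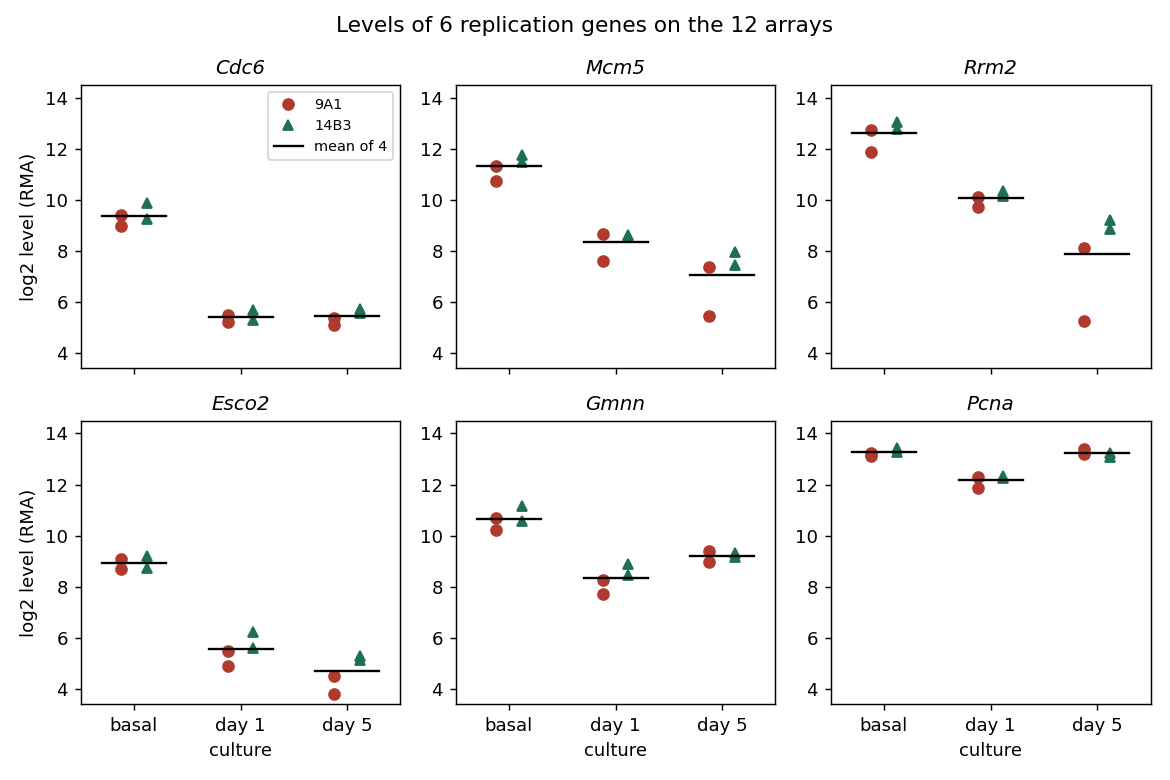
Log2 level of 6 replication genes on the 12 arrays by culture, with circles for 9A1, triangles for 14B3 and a black line for the mean of the 4 arrays. Cdc6 reaches its low level at day 1, Mcm5, Rrm2 and Esco2 step down again by day 5, and Gmnn and Pcna are higher at day 5 than at day 1.

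Nucleotide supply fell with the fork. Rrm1 and Rrm2, the subunits of ribonucleotide reductase, and the thymidine kinase Tk1 were all called lower at both times. Rrm2, the subunit made in S phase, stood at 11.87 and 12.74 in basal culture, 9.73 and 10.11 at day 1 and 8.11 and 5.27 at day 5 in 9A1 cells, and at 13.03 and 12.77 in basal culture, 10.34 and 10.15 at day 1 and 9.23 and 8.88 at day 5 in 14B3 cells. The cultures did not overlap, and day 5 9A1 replicate 2 lay more than 2 log2 units below the next array. Rrm2 fell by 2.52 ± 0.51 at day 1 and 4.73 ± 0.51 at day 5 (adjusted p = 0.00022), 26.5-fold lower than in basal culture. This was the largest fall of the 40 members at day 5, but its size and rank depended on single arrays. Without day 5 9A1 replicate 2 the Rrm2 difference was -4.02, behind Esco2 at -4.08, and without day 5 9A1 replicate 1 it was -5.44. In 14B3 alone it was -3.85, behind Gins1 and others. Its other probe sets gave -4.65 ± 0.33 and -4.98 ± 0.51 at day 5. Rrm1 stood at 10.60 and 11.97 in basal culture, 9.51 and 8.68 at day 1 and 8.28 and 7.74 at day 5 in 9A1 cells, and at 11.51 and 11.40 in basal culture, 9.22 and 9.19 at day 1 and 8.49 and 8.22 at day 5 in 14B3 cells. Basal 9A1 replicate 1 was the lowest basal array and still above every aggregate array, and Rrm1 fell by 2.22 ± 0.30 at day 1 and 3.19 ± 0.30 at day 5 (adjusted p = 0.000118). Tk1 fell by 2.54 ± 0.20 at day 1 and dropped by 3.27 ± 0.20 at day 5.

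The genes that hold sister strands together and rebuild chromatin behind the fork, Dscc1, Esco2 and Chaf1b, were all called lower at both times. Esco2, the acetyltransferase that locks cohesin in S phase, stood at 8.71 and 9.08 in basal culture, 5.50 and 4.91 at day 1 and 4.50 and 3.80 at day 5 in 9A1 cells, and at 9.22 and 8.74 in basal culture, 6.23 and 5.58 at day 1 and 5.30 and 5.12 at day 5 in 14B3 cells. Aggregate levels reached the floor of 5, which limits the size of the fall. Esco2 fell by 3.38 ± 0.24 at day 1 and dropped by 4.25 ± 0.24 at day 5 (adjusted p = 2.84e-05). Dscc1, part of the alternative clamp loader that acts in cohesion, fell by 3.83 ± 0.24 at day 5, and its day 5 mean was also under the floor. Chaf1b, the middle subunit of the chromatin assembly factor, stood at 8.76 and 9.91 in basal culture, 7.62 and 6.84 at day 1 and 6.59 and 6.42 at day 5 in 9A1 cells, and at 9.89 and 9.68 in basal culture, 7.55 and 7.15 at day 1 and 6.74 and 6.49 at day 5 in 14B3 cells. Its basal arrays were separate from all others, and it fell by 2.27 ± 0.27 at day 1 and 3.003 ± 0.27 at day 5 (adjusted p = 9.57e-05).

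Between day 1 and day 5 most members had no called change, and the difference was negative for 35 of them. Of the 40, 11 fell further, where 10% of all tested genes were called lower. Pcna and Gmnn rose, where 11.7% of all genes were called higher, so rises were no more frequent than in the background. The remaining 27 were not called in either direction, and the median member difference was -0.52 against -0.04 over all genes. The members that fell further were Mcm5, Mcm7, Gins1, Gins2, Dbf4, Prim1, Pole2, Rpa1, Rrm2, Tk1 and Esco2. The largest of these differences were -2.21 ± 0.51 for Rrm2 (adjusted p = 0.015), -1.43 ± 0.26 for Mcm7 (adjusted p = 0.00556) and -1.40 ± 0.33 for Dbf4 (adjusted p = 0.016). In all, 26 members were called lower at day 1 and day 5 with no called change between, and 11 were lower at each step. Gmnn, Pcna and, on the probe set that stood for it, Orc1 followed courses of their own. The other Orc1 probe set was lower at day 1 and day 5 with no called change between. The count of 11 was not steady. It was 17 without either basal 9A1 array or without day 1 9A1 replicate 2, and 2 to 5 without day 1 14B3 replicate 1 or 2, day 5 9A1 replicate 2 or either day 5 14B3 array.

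**Figure D4:**
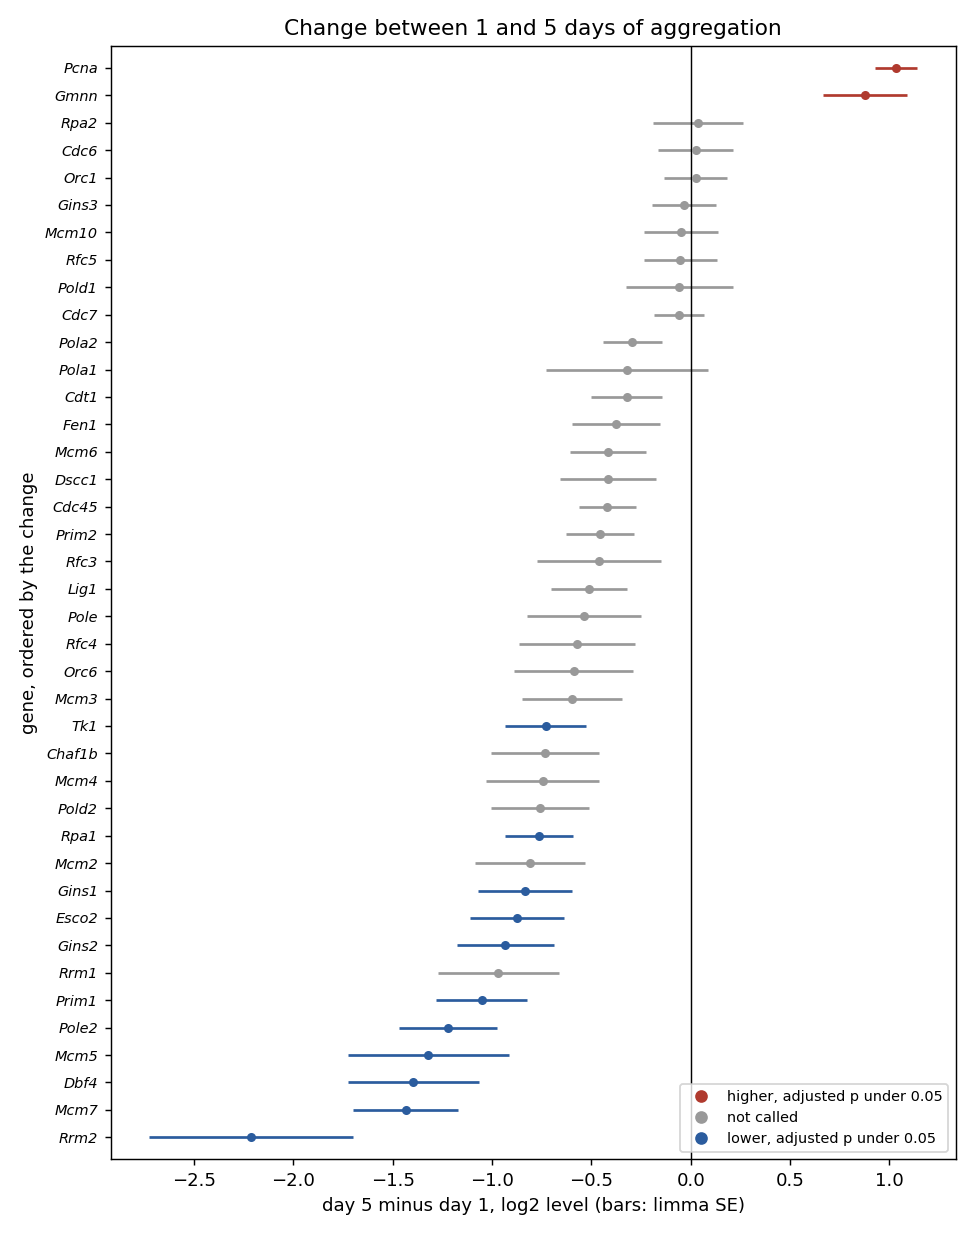
Difference in log2 level between day 5 and day 1 for the 40 replication genes, ordered by its size, with limma standard errors as bars. Pcna at 1.03 and Gmnn at 0.88 are the called rises, 11 genes from Tk1 at -0.73 to Rrm2 at -2.21 are the called falls, and grey marks the 27 genes that were not called.

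Both lines showed the fall. In 9A1 alone, read from the same fit with 2 arrays per culture, 29 members were called lower at day 1 and 37 at day 5, where 1.53% and 8.54% of all genes were. In 14B3 the counts were 36 and 38, where 5.17% and 14.1% of all genes were. The median member difference at day 5 was -2.59 in 9A1 and -2.81 in 14B3. When 9A1 was fitted without the 14B3 arrays, 0 members were called lower at day 1 and 18 at day 5. With 14B3 fitted on its own the counts were 39 at day 1 and 38 at day 5. The shares of all genes given above belong to the joint fit. None is given for these separate fits, so their counts cannot be set against a background. The replicates of 9A1 were further apart, with an SD of the pair difference over tested genes of 0.896 in basal culture, 0.779 at day 1 and 0.405 at day 5, against 0.253, 0.300 and 0.196 in 14B3.

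Averaged over the cultures, all 40 members had a lower mean in 9A1 than in 14B3, with a median difference of -0.31. Of all 15781 tested genes 8689 were lower in 9A1, with a median of -0.02. None of the members was called, where 0.272% of all genes were called in either direction by limma. The smallest adjusted p was 0.166, for Gins1 at -0.84 ± 0.19, and Rrm2 had the largest difference, -1.09 ± 0.42. At an unadjusted p under 0.05 there were 13 members. Members called within single cultures were 0 in basal culture (0.019% of all genes), 0 at day 1 (0%) and 0 at day 5 (0.247%), with 4, 0 and 5 at an unadjusted p under 0.05. The difference between the lines in their response was called for 0 members at day 1 (0% of all genes) and 0 at day 5 (0.038%), with 0 and 0 at an unadjusted p under 0.05. The 3 arrays that were lowest for most members all belong to 9A1. Without basal 9A1 replicate 1, 37 members were lower in 9A1, and without it and day 1 9A1 replicate 2, 31 were. Without basal 9A1 replicate 2 the number called was 2, and without day 5 9A1 replicate 1 it was 1.

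Second readings came from other probe sets. The 40 members had 84 probe sets, and 31 members had more than 1. Of the 44 that did not stand for a gene, 37 from 27 members reached the floor on at least 2 arrays. Of these 37, 28 were called lower at day 1 and 29 at day 5, and none was called higher. These calls come from a separate fit over probe sets, adjusted over the probe sets tested. No share of all probe sets called lower in it is given, so the counts have no background beside them. The 8 that were not called at day 5 never exceeded 7.08 on any array. Members read from a probe set whose name ends in _x_at or _s_at, which can also match other transcripts, were 8: Mcm2, Mcm3, Mcm5, Mcm7, Gins2, Pold1, Fen1 and Rrm2. Against basal culture 2 probe sets had the other sign from the one that stood for their gene. For Prim2, 1445474_at stood at 5.67 and 5.90 in basal culture, 5.56 and 6.65 at day 1 and 5.53 and 5.72 at day 5 in 9A1 cells, and at 5.62 and 5.85 in basal culture, 5.73 and 5.72 at day 1 and 5.74 and 5.53 at day 5 in 14B3 cells. Its cultures overlapped, with a difference of 0.15 ± 0.21 at day 1. The Cdc45 probe set 1416575_at, which stood for the gene, stood at 8.42 and 8.64 in basal culture, 6.49 and 6.45 at day 1 and 6.04 and 5.72 at day 5 in 9A1 cells, and at 9.08 and 8.82 in basal culture, 6.70 and 6.56 at day 1 and 6.51 and 6.24 at day 5 in 14B3 cells. Its basal arrays lay above all others. The second Cdc45 probe set, 1457838_at, stood at 6.76 and 6.70 in basal culture, 6.60 and 7.06 at day 1 and 6.77 and 7.02 at day 5 in 9A1 cells, and at 7.08 and 6.96 in basal culture, 6.62 and 6.99 at day 1 and 6.88 and 6.86 at day 5 in 14B3 cells. It showed no separation between cultures, with a difference of 0.01 ± 0.15 at day 5.

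**Figure D5:**
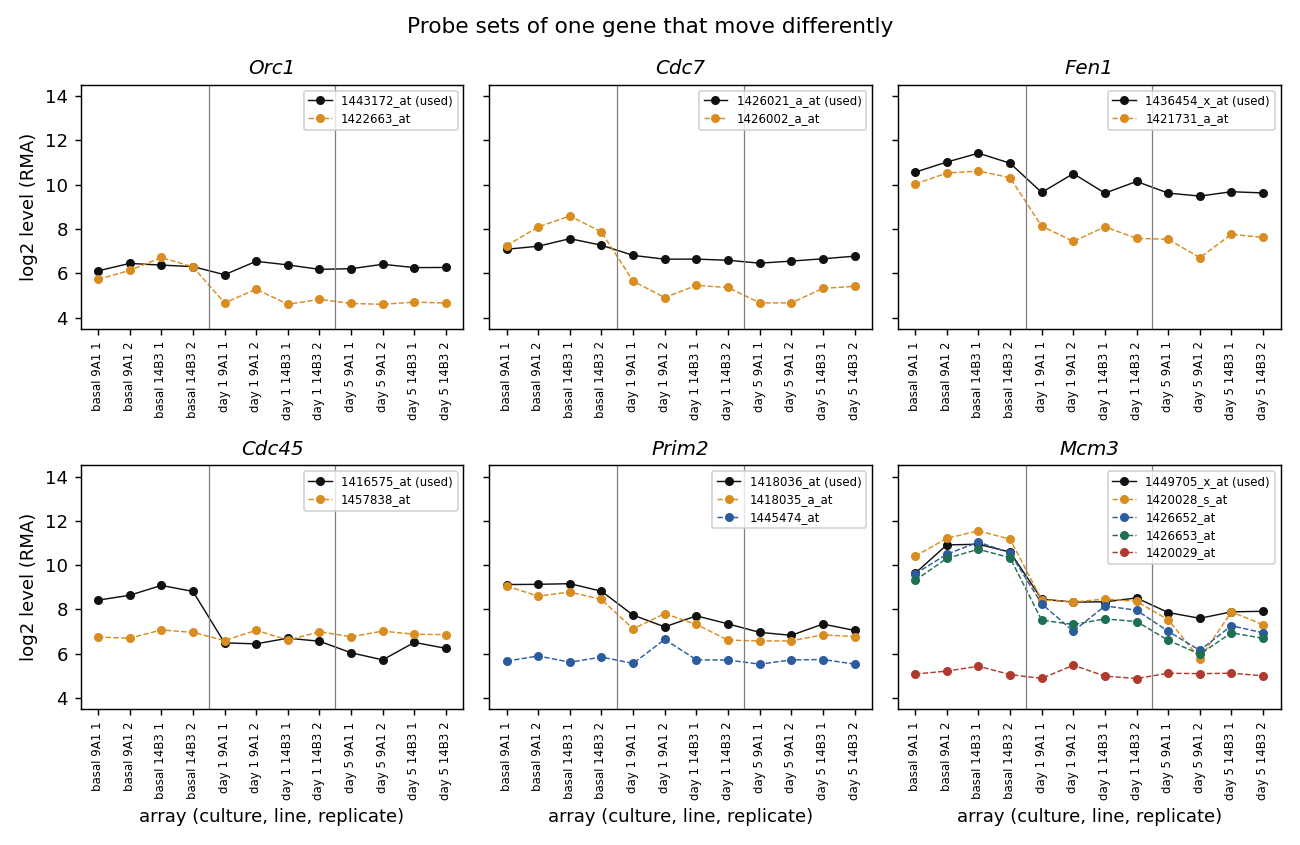
Log2 level of every probe set of 6 replication genes on each array, with the probe set that stood for the gene in black. For Orc1, Cdc7 and Fen1 the other probe set falls more than the one used, and for Cdc45, Prim2 and Mcm3 a probe set stays flat while the others fall. The flat Cdc45 probe set lies above the one used on every day 5 array, and the remaining Mcm3 probe sets fall more than the one used.

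Genes that work beside the members were read from 5 further lists. Their counts are to be read against all tested genes, of which 8.8% were called lower at day 1 and 18.5% at day 5. Called higher than basal culture at day 5 were 16.9% of all genes. Of 34 other fork and origin genes, 26 were called lower at day 1 and 26 at day 5, and none higher, with a median of -1.25 at day 5. The largest falls at day 5 were those of topoisomerase Top2a (-4.31 ± 0.44), the Pcna-binding protein Pclaf (-4.27 ± 0.42) and the fork protection protein Tipin (-3.41 ± 0.23). Between day 1 and day 5, 6 fell and 3 rose, where 10% of all genes were called lower and 11.7% higher, so the count of rises is near the background. The rises were 1.61 ± 0.36 for the small delta polymerase subunit Pold4 (adjusted p = 0.0126), 1.43 ± 0.20 for the fork protein Donson (adjusted p = 0.00175) and 0.77 ± 0.15 for the small epsilon polymerase subunit Pole4 (adjusted p = 0.00651). At day 5 against basal culture the values were 0.97 ± 0.36 for Pold4, which was not called, and -2.17 ± 0.27 for Pold1.

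Of 16 other nucleotide supply genes on the table, 10 were called lower at day 1 and 12 at day 5, with a median of -1.37. The largest falls at day 5 were those of Cad, which starts pyrimidine synthesis (-2.89 ± 0.41), the dUTPase Dut (-2.38 ± 0.16) and the purine enzyme Paics (-2.31 ± 0.27), and the mitochondrial deoxyguanosine kinase Dguok rose by 0.72 ± 0.21 (adjusted p = 0.024). Counterparts of the members that act outside S phase were picked out after their values were seen. Rrm2b, the reductase subunit of non-dividing cells, differed by -0.01 ± 0.16 at day 5, beside -4.73 for Rrm2. Tk2, the mitochondrial thymidine kinase, differed by 0.51 ± 0.22, beside -3.27 for Tk1. Esco1, the cohesin acetyltransferase that is not tied to S phase, differed by 0.24 ± 0.19, beside -4.25 for Esco2. None of these 3 counterparts was called.

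Of 18 other genes of cohesion and chromatin copying, 8 were called lower at day 1 and 13 at day 5, led at day 5 by the remodeller Hells (-4.37 ± 0.41), Uhrf1, which guides maintenance methylation (-3.89 ± 0.34), and the cohesion factor Cdca5 (-3.16 ± 0.17). Among 13 genes of the E2F and RB families, 6 were called lower at day 1 and 7 at day 5. The largest falls at day 5 were those of the repressor E2f7 (-3.53 ± 0.30), the E2F partner Tfdp1 (-1.45 ± 0.17) and E2f8 (-1.45 ± 0.20). Rb1 and Rbl2, which hold E2F back, were higher at day 5 than in basal culture by 0.97 ± 0.22 (adjusted p = 0.00731) and 1.08 ± 0.28 (adjusted p = 0.0133). These 2 of 13 genes are near the background, as 16.9% of all tested genes were called higher. Between day 1 and day 5, Rb1 rose by 1.86 ± 0.22 and its relative Rbl1 by 1.48 ± 0.23, where 11.7% of all genes were called higher. The Rb1 mean at day 1 thus lay below its basal mean. Of 16 repair polymerases and ligases that act outside the fork, 3 were called lower at day 1 and 8 at day 5, with a median of -0.08 at day 1 and -0.41 at day 5. The largest falls at day 5 were those of the strand break sensor Parp1 (-1.58 ± 0.19) and the bypass polymerases Polh (-1.20 ± 0.18) and Rev1 (-1.08 ± 0.27), and the mitochondrial polymerase subunit Polg2 rose by 1.51 ± 0.22 at day 5 (adjusted p = 0.000835). In 9A1 fitted alone none of the 5 lists had a gene called lower at day 1. At day 5 the counts were 8, 1, 4, 1 and 0 in the order given here. No share of all genes is given for that fit. The repair list's day 1 count of 3 lay between 0 and 5 when single arrays were left out, and the day 1 count of 10 for nucleotide supply between 5 and 11.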

How the data were processed

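The deposited table holds log2 levels of 45101 probe sets on 12 arrays, which the authors summarised by RMA (the submitters' processing notes name R 2.3.1). RMA scales the arrays to each other, so a change in total RNA is not seen, although the deposited columns do not share exactly one distribution. No detection calls, scans or depths are used here. The number of arrays limits the precision. Probe sets with 1 annotated gene (34945) were kept, and those with several (932), none (9160) or control sequences (64) were left out. The probe set with the highest mean stood for a gene. The test took in the 15781 genes that reached log2 5 on at least 2 arrays.

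R 4.3.3 and limma 3.58.1 fitted a mean for each of the 6 groups, with empirical Bayes moderation and a variance trend, and Benjamini-Hochberg adjustment over all tested genes. The procedure was run on simulated data with independent errors and, for each gene, equal spread on all 12 arrays. It recovered 63% to 66% of 2-fold changes between cultures. The simulation did not hold the unequal spread of the 2 lines, so it does not show how the procedure performs on these arrays. The members and all gene lists were chosen with earlier results of these data known, so no list is tested as a set. All members were named by step. Values by array were given for the members with the largest and smallest change per step, those called in no culture comparison or upward, and both probe sets where signs differed from basal culture. From each other list, the 3 largest called falls at day 5 and every called rise were named, and a few genes chosen after their values were seen are marked so. The main fit did not pair samples by replicate number. The correlation of replicate differences between groups ran from -0.30 to 0.50 over 15 pairs, and exceeded 0.1 in 5. It was 0.50 between day 1 9A1 and day 1 14B3, and 0.38 between day 1 9A1 and day 5 9A1. Whether replicates of the same number shared a run was not tested. Alternatives were 2 normalisations, 2 filters, other probe set rules, array weights, other variance settings, stricter thresholds, other designs, each line alone, a replicate block and leaving out each array. Leaving out 2 pairs of arrays, and all alternatives for the other lists, were added after the data were seen. Promoters are from RefSeq, GRCm38.p6, and 5 of the 33 members found had several starts, of which the first was used.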

Additional observations from a re-analysis of the deposited data

Results flagged for a closer look

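In 10 of 120 sets of 4 arrays, a member's highest or lowest array was separated from the other 3 by most of the range of its culture, and in all 10 it was the lowest. Chance gives this for about 1 set in 20 where arrays are independent draws, but each set here pools both lines and all sets share the same 12 arrays. Basal 9A1 replicate 1 was that array 4 times, with Mcm7 at 12.08 where the other basal arrays had 12.87 to 12.97, Dbf4 at 9.74 against 11.09 to 11.25, Pold1 at 9.26 against 9.92 to 10.05 and Pole at 8.26 against 9.52 to 9.75. Basal 14B3 replicate 2 was low for Prim2, at 8.82 against 9.12 to 9.16. Day 1 9A1 replicate 2 was low for Mcm5 at 7.61 against 8.54 to 8.68, for Pola2 at 8.31 against 8.78 to 8.83 and for Pcna at 11.88 against 12.26 to 12.33. Day 5 9A1 replicate 2 was low for Mcm2 at 7.87 against 9.08 to 9.10 and for Dbf4 at 6.17 against 7.27 to 7.42. All but 1 of these low values lay on 3 arrays of 9A1. On Cdc7 every day 5 array moved one way against day 1 in 9A1 and the other way in 14B3, with a mean difference of -0.0596 over both lines, and this contrast between the lines was not tested. In 14B3 the gap was narrow, from 6.64 on the higher day 1 array to 6.65 on the lower day 5 array. On the other Cdc7 probe set the 14B3 arrays of day 1 and day 5 overlapped.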

How the results depend on the processing

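With the replicate number as a block the counts were again 39 members lower at day 1, 38 lower at day 5, 11 lower and 2 higher between day 1 and day 5, and 0 between the lines, and the block changed no call. Leaving out single arrays gave 35 to 39 members lower at day 1, 38 in every case at day 5, 2 to 17 lower and 1 to 2 higher between the stages. Between the lines it gave 0 to 2 called on average, 0 to 4 in basal culture, 0 to 2 at day 1 and 0 to 1 at day 5. In 9A1 alone the counts were 0 at day 1, 18 at day 5, and 0 lower and 0 higher between the stages, and in 14B3 alone 22 were lower and 1 higher. At an adjusted p under 0.01, 2 were lower and 1 higher between the stages, and with a minimum of 2-fold 6 and 1. Array weights gave 1 higher, and 1 called between the lines at day 5. Leaving out basal 9A1 replicate 1 with day 1 9A1 replicate 2 gave 28 lower between the stages and 1 called between the lines. No share of all genes is given for these alternatives, so the counts show only how far those of the main fit moved. The causes were not tested.

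Signs turned for values near 0. Pcna at day 5 against basal culture was 0.0066 with quantile normalisation and 0.10 in 9A1 alone. Orc1 at day 5 was 0.028 in 9A1 alone. With the mean of its probe sets Orc1 was called lower, at -0.71 at day 1 and -0.80 at day 5. Without 1 array, or 2 of those above, it ran from -0.284 to 0.103 at day 1 and from -0.157 to 0.0605 at day 5. Cdc6 between day 1 and day 5 was -0.12 in 9A1 alone, -0.04 without basal 9A1 replicate 1 and day 1 9A1 replicate 2, and -0.0684 to 0.12 without single arrays.

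For the other lists, 9A1 alone gave at day 1 and day 5 counts lower of 0 and 8 for fork and origin, 0 and 1 for nucleotide supply, 0 and 4 for cohesion and chromatin, 0 and 1 for E2F and RB, and 0 and 0 for repair. The repair counts were 1 at day 1 with array weights, 0 and 4 at an adjusted p under 0.01, 0 and 3 at 2-fold, 0 at day 1 with only the cultures compared, 6 at day 1 in 14B3 alone, and 5 at day 5 without basal 9A1 replicate 1 and day 5 9A1 replicate 2. Nucleotide supply at day 1 was 5 at an adjusted p under 0.01 and 6 with only the cultures compared, and fork and origin at day 1 was 17 at 2-fold. Without single arrays the ranges were 0 to 5 and 5 to 8 for repair, 5 to 11 for nucleotide supply at day 1 (12 without basal 9A1 replicate 1 and day 5 9A1 replicate 2) and 6 to 13 for cohesion and chromatin at day 1. Levels near the floor limit the size of falls for Cdc6, Dscc1 and Esco2, and on day 5 9A1 replicate 2 for Mcm5 and Rrm2.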
